A study of Mus musculus with 6 samples.

Results

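The haem and iron handling genes described here are 9 genes, chosen by symbol from the 32285 genes listed in both pools' feature tables: Cd163, Hmox1, Blvrb, Fth1, Ftl1, Slc40a1, Slc11a1, Trf and Tfrc. All 9 were found, once each. In the GRCm38 assembly, as RefSeq gives it, Cd163 lies at chr6:124304636-124330529, Hmox1 at chr8:75093618-75100593, Blvrb at chr7:27447978-27465981, Fth1 at chr19:9980600-9985111 and Ftl1 at chr7:45457944-45459886. Slc40a1 lies at chr1:45908070-45926532, Slc11a1 at chr1:74375014-74386057, Trf at chr9:103208876-103230286 and Tfrc at chr16:32608896-32632794. They were counted in single CD45-sorted cells of YUMM1.7 melanomas, a mouse melanoma line grown under the skin of female C57BL/6J mice aged 8 weeks. The 4 conditions, with 4 mice each, were LysM-Cre mice given anti-PD-1, floxed mice given anti-PD-1, LysM-Cre mice given the isotype antibody and floxed mice given the isotype antibody. Every mouse carried the floxed glucocorticoid receptor gene Nr3c1 (GRf/f, called floxed), and the LysM-Cre mice had in addition a Cre recombinase under the Lyz2 promoter, which is active in macrophages, monocytes and neutrophils and not only in macrophages. Antibodies were given at 12.5 mg/kg, 2 times a week for 3 weeks, and tumours were taken on day 28. CITE-seq, the method used, counts messenger RNA molecules of a cell as UMIs (unique molecular identifiers) together with DNA tags on antibodies bound to its surface. The 16 mice were marked with hashtag antibodies and run in 2 pools, so mice 1 and 2 of every condition share pool E5 and mice 3 and 4 share pool E6.

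Haemoglobin freed from red cells is bound by haptoglobin and taken up by macrophages through CD163. Haem oxygenase 1 (Hmox1) then opens the haem ring to biliverdin, carbon monoxide and iron, and biliverdin reductase B (Blvrb) is a flavin reductase that can also reduce biliverdin. The freed iron is stored in ferritin, a shell of heavy (Fth1) and light (Ftl1) chains, or leaves the cell through ferroportin (Slc40a1), the only known iron exporter of mammals. Slc11a1 (Nramp1) moves divalent metals across the membrane of the phagosome. Transferrin (Trf) carries iron in plasma, and cells take it up through the transferrin receptor (Tfrc). Macrophages that recycle red cells are known for high CD163, haem oxygenase 1 and ferroportin, and haem itself is a known inducer of Hmox1 and Slc40a1.

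After demultiplexing, 17239 cells with 1 hashtag were left, 134 to 3098 per mouse. Sums of gene UMIs per mouse ranged from 1546045 to 29701640. The lowest was anti-PD-1 floxed mouse 2. Of the cell barcodes, 789 occurred in both pools. Cells were clustered without the 9 genes, and 13 cell classes were named from marker genes. They are macrophage-like, monocyte-like and so on, called macrophages and monocytes for short. The macrophages numbered 2500 (54 to 404 per mouse) and the monocytes 4682 (21 to 1148 per mouse), and 7 clusters with 2143 cells stayed unnamed. The targeted gene, Nr3c1, had 22.6 to 29.5 counts per 1000000 gene UMIs (CPM) in macrophages of anti-PD-1 LysM-Cre mice, against 51.6 to 60.4 CPM in those of anti-PD-1 floxed mice. With the isotype antibody the ranges were 22.5 to 77.4 CPM in LysM-Cre and 50.1 to 82.5 CPM in floxed macrophages. It did not pass edgeR's test over all genes (log2 change over both treatments -0.86, adjusted p = 0.451, unadjusted p = 0.000473). In monocytes Nr3c1 had 23.6 to 37.6 CPM in LysM-Cre and 39.1 to 68.7 CPM in floxed mice with anti-PD-1. With isotype these ranges were 35.9 to 58.6 and 60.4 to 69.3 CPM. The monocyte change over both treatments was -0.63 and did not pass either (edgeR adjusted p = 0.208, unadjusted p = 5.61e-05). Reads from the 3' end do not show whether a floxed exon was lost. C1qa, a complement gene of macrophages, had a UMI in 97.8% of macrophages (median depth 13060 gene UMIs), and in 59.0% of CD8 T cells (5558) and 60.7% of NK cells (9798), which are not known to make it. Low levels of members in lymphocytes are therefore given as values and not read as expression.

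The panel of 88 surface antibodies held one member's protein, CD163, and none against the transferrin receptor (CD71). The CD163 signal was read from the antibody's DNA tag, shown here because the protein results rest on it, in lower case throughout.
CD163 antibody tag: gagcaagattaagac

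By class, the 9 genes split between phagocytes and other cells. Over all clusters, Hmox1, Blvrb, Slc11a1, Fth1, Ftl1 and Trf were highest in macrophages, neutrophils or an unnamed cluster whose nearest class was monocytes or macrophages, and Slc40a1 was highest in neutrophils. Tfrc was highest in plasmacytoid dendritic cells (pDC). These levels are descriptions without a test, since classes were built from expression of the same cells. Levels are means ± SD over mice with at least 20 cells of a class, in CPM, and are compared within a gene and not between genes.

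**Figure D1:**
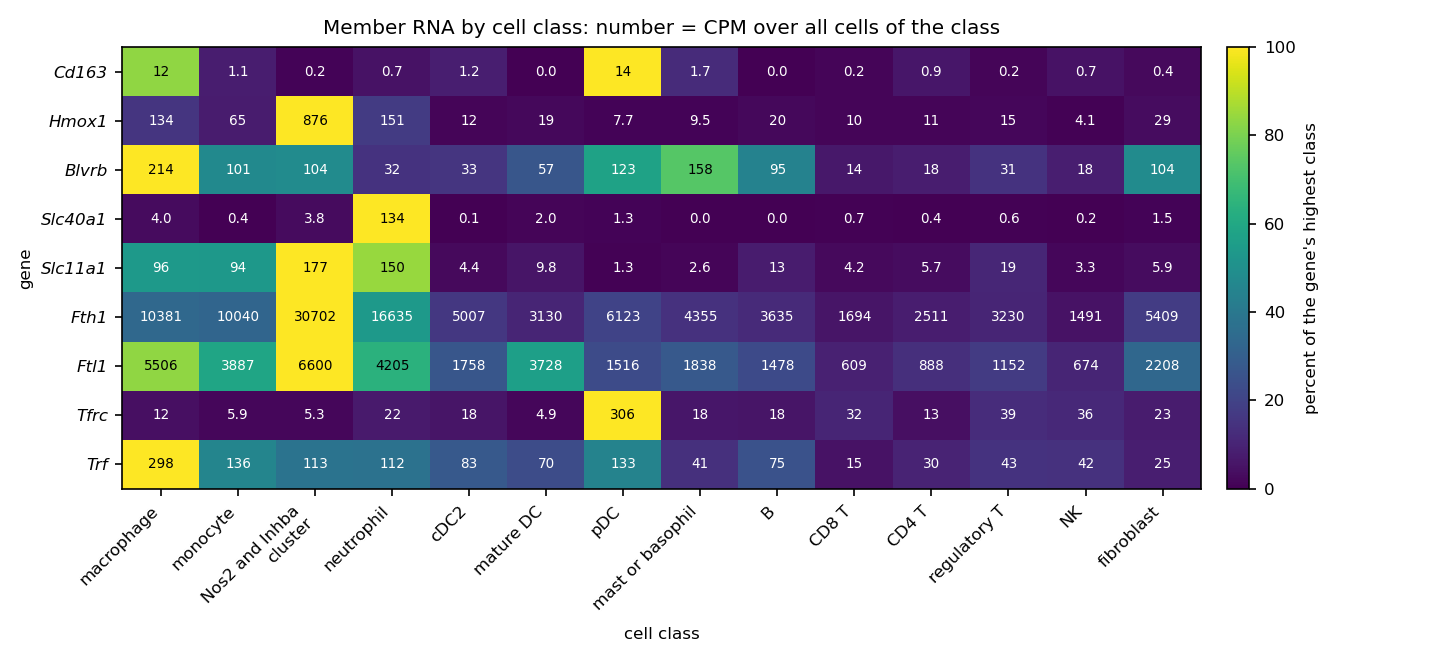
RNA level of each gene (rows) in 13 named classes and 1 unnamed cluster (columns). The printed number is CPM over all cells of the class, and the colour is that level as a percent of the gene's highest column. Hmox1 and Fth1 are brightest in the Nos2 and Inhba cluster, Slc40a1 in neutrophils and Tfrc in pDC.

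Hmox1 averaged 205 ± 151 CPM in neutrophils (n = 14 mice), 134 ± 34.8 CPM in macrophages (n = 16) and 70.3 ± 16.7 CPM in monocytes (n = 16). Neutrophil values ran from 78.7 to 598 CPM, so the order of neutrophils and macrophages lies within the spread. Fibroblast-like cells had 31.2 ± 14.4 CPM (n = 15), regulatory T cells 17.2 ± 8.32 CPM (n = 9), type 2 dendritic cells (cDC2) 12.2 ± 6.5 CPM (n = 11) and CD4 T cells 12.1 ± 8.4 CPM (n = 9), and these neighbours overlapped. CD8 T cells had 10.7 ± 9.94 CPM (n = 15), mast cells or basophils 8.65 ± 3.4 CPM (n = 3) and NK cells 3.46 ± 2.86 CPM (n = 14). Pooled over mice, B cells had 19.9, mature dendritic cells 18.7 and pDC 7.69 CPM. The highest Hmox1 of any cluster was in the unnamed cluster of 573 cells in which Nos2, the inducible nitric oxide synthase, had a UMI in 48.3% and Inhba, an activin subunit, in 33.0% of cells. There Hmox1 averaged 826 ± 268 CPM over the 7 mice with at least 20 such cells, 627 to 1412 CPM, above every macrophage value. Within macrophages, the cluster with the highest share of Mrc1 cells (987 cells, Mrc1 being the mannose receptor) had 222 CPM over all its cells, and the other macrophage clusters had 68.5 and 73.9 CPM.

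Blvrb was highest in macrophages, at 215 ± 47.2 CPM, ahead of mast cells or basophils (133 ± 42.9 CPM, n = 3), fibroblast-like cells (109 ± 17.1 CPM) and monocytes (106 ± 29.5 CPM), though the ranges over mice of these 4 classes overlapped. Neutrophils had 41.1 ± 26.1 CPM, cDC2 32.3 ± 8.25 CPM and regulatory T cells 31.2 ± 14.3 CPM, also overlapping. NK, CD4 T and CD8 T cells averaged 16.7, 16.6 and 13.8 CPM, and pDC, B cells and mature dendritic cells had 123, 95.3 and 57.0 CPM pooled. Unlike Hmox1, Blvrb did not stand out in the Nos2 and Inhba cluster, where it averaged 108 ± 61.1 CPM.

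Ferritin heavy chain RNA followed Hmox1 in its order over phagocytes. Fth1 averaged 34199 ± 9239 CPM in the Nos2 and Inhba cluster (7 mice), 18171 ± 5456 CPM in neutrophils, 10602 ± 1961 CPM in macrophages and 9997 ± 2148 CPM in monocytes, and the ranges overlapped between the Nos2 and Inhba cluster (21066 to 46121 CPM) and neutrophils (10076 to 32082 CPM), as did those of the last 3. Fibroblast-like cells had 6020, cDC2 5315, regulatory T cells 3223, CD4 T cells 2459, CD8 T cells 1666 and NK cells 1459 CPM on average. The light chain, Ftl1, differed less between phagocytes: 6235 ± 740 CPM in the Nos2 and Inhba cluster, 5478 ± 832 CPM in macrophages, 5074 ± 1160.3 CPM in neutrophils and 3937 ± 407 CPM in monocytes. Of all clusters, an unnamed one of 395 cells nearest to macrophages, with a low median depth of 1823 UMIs, had the most Ftl1, at 7060 CPM over its cells. Ftl1 in NK and CD8 T cells averaged 687 and 605 CPM. Both ferritin genes have related genes or copies in the annotation, such as Ftl1-ps1 and Fthl17 genes. How alike their sequences are was not examined, and any reads shared with them are not separated here.

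Slc40a1 stood out in neutrophils at 162 ± 56.5 CPM (14 mice, 78.2 to 307 CPM), above the highest value of any other class. Macrophages had 6.51 ± 9.45 CPM, fibroblast-like cells 1.81 ± 2.32 CPM and CD4 T cells 1.02 ± 3.07 CPM, and every other class averaged under 1 CPM apart from mature dendritic cells (1.97 CPM pooled) and pDC (1.28 CPM pooled). A Slc40a1 UMI was seen in 28.4% of neutrophils, whose median depth was 2894 UMIs, against 0.265% of NK cells at a median of 9798 UMIs, a class not known for this exporter. Slc11a1 averaged 156 ± 46.1 CPM in neutrophils, 96.4 ± 33.4 CPM in macrophages and 95.1 ± 21 CPM in monocytes, which overlapped, and 179 ± 42.6 CPM in the Nos2 and Inhba cluster. Regulatory T cells, with 16.0 ± 10.5 CPM, were the next highest of the classes with replicate mice, and NK cells and mast cells or basophils were lowest, at 2.54 and 1.12 CPM.

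Trf averaged 305 ± 72.1 CPM in macrophages, 141 ± 38.7 CPM in monocytes, 121 ± 46.5 CPM in neutrophils and 82.1 ± 26.3 CPM in cDC2, and 413 ± 115 CPM in the Mrc1 macrophage cluster (15 mice). CD8 T cells, with 14.3 ± 6.77 CPM, were lowest. Trf was not limited to phagocytes: a cluster of 33 mast cells or basophils had 388 CPM, with a UMI in 69.7% of its cells, and pDC had 133 CPM pooled. Tfrc, the receptor, had 306 CPM over all 82 pDC, with a UMI in 78.0% of them, 227 CPM in an unnamed cluster of 20 cells (a UMI in 90%) and 70.4 CPM in an unnamed cluster of 238 cells. Regulatory T, NK and CD8 T cells averaged 37.6 ± 13.4, 34.5 ± 10.1 and 34.1 ± 12.0 CPM and overlapped, while macrophages had 11.2 ± 5.74 CPM and monocytes 6.33 ± 2.18 CPM.

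Cd163 was low and uneven. It averaged 14.3 ± 21.6 CPM in macrophages, 0.316 to 63.7 CPM by mouse. Pooled over all cells, pDC were the highest class, at 14.1 CPM (11 UMIs, a UMI in 11.0% of cells). Macrophages had 11.8 CPM on this pooled measure, with a UMI in 4.4% of cells. By cluster, Cd163 was highest in the Mrc1 macrophage cluster, at 25.3 CPM over its cells. The monocyte mean of 4.96 ± 17.2 CPM came from 1 mouse with 69.5 CPM, and its other mice had at most 2.88 CPM.

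Across conditions, no member passed the test in any class. The tests were edgeR's quasi-likelihood test on counts summed per mouse and class, with the pool as a covariate and p-values adjusted over all genes tested (threshold 0.05). The 5 classes with enough mice had 7 contrasts each: genotype within either treatment, treatment within either genotype, their interaction, and genotype and treatment over both levels of the other. In macrophages, 0 of 63 member tests passed edgeR, 12 had an unadjusted p under 0.05 (19.0%, against 8.77% of all gene tests) and 2 passed DESeq2. Of all macrophage gene tests, 0.0132% passed edgeR and 0.500% DESeq2. In monocytes, where Cd163 and Slc40a1 did not pass the filter on low counts, 0 of 49 member tests passed edgeR, 6 had an unadjusted p under 0.05 (12.2%, against 6.18% of all gene tests) and 0 passed DESeq2, and 0.00309% of all gene tests passed edgeR. In fibroblast-like cells the counts were 0 of 49 by edgeR, 6 unadjusted and 1 by DESeq2, against 0.0293%, 6.62% and 0.239% of all gene tests. CD8 T cells had 0 of 28, with 1 unadjusted and 0 by DESeq2 (0.00917% of all gene tests by edgeR, 5.22% unadjusted), and NK cells 0 of 35, with 1 unadjusted and 0 by DESeq2 (0.00243% of all gene tests by edgeR, 5.15% unadjusted). Over the 9 members in macrophages, 7 had a positive estimate for treatment over both genotypes, with a median of 0.22 (log2), against -0.01 over all genes, and 5 for genotype over both treatments, with a median of 0.10, against 0.01. Genotype and treatment contrasts share mice, so likeness between their values is not a result.

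**Figure D2:**
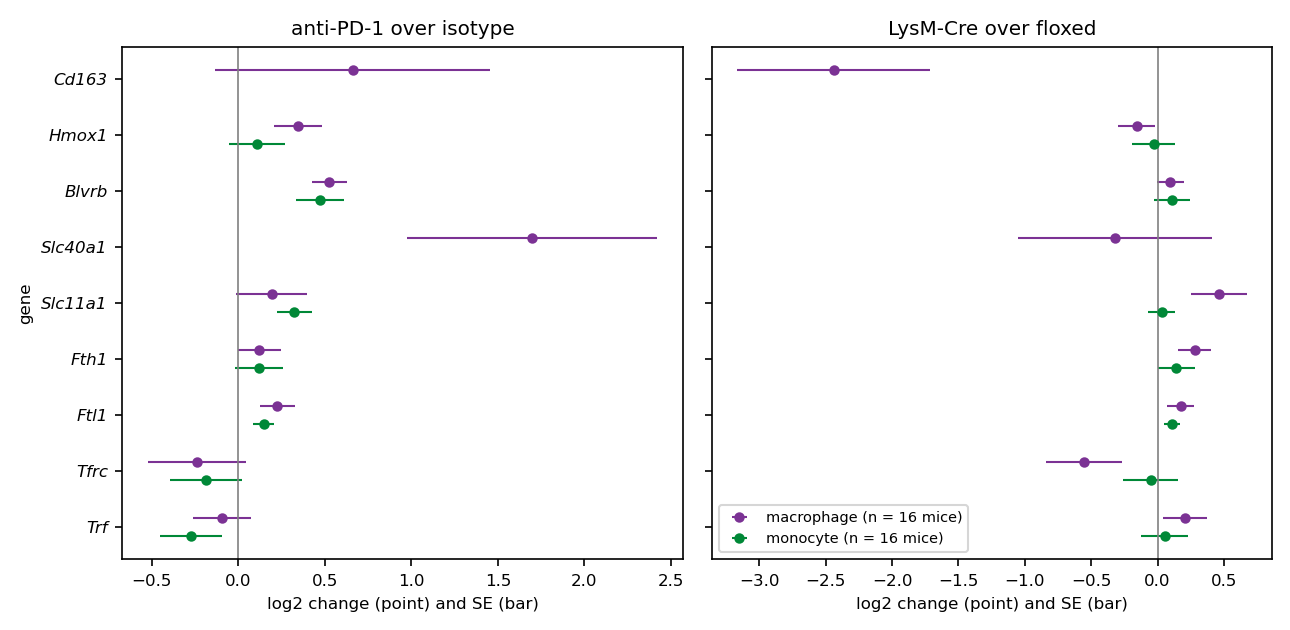
Log2 change (horizontal axis) of each gene (vertical axis) in macrophages (purple) and monocytes (green), anti-PD-1 over isotype on the left and LysM-Cre over floxed on the right, with points for edgeR's estimate and bars for its SE (16 mice). Cd163 and Slc40a1 have no monocyte value. Blvrb in macrophages lies at 0.53 with anti-PD-1, and Cd163 at -2.44 with LysM-Cre.

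Anti-PD-1 against isotype asks what checkpoint blockade does to these genes. The clearest difference was in Blvrb of macrophages. The anti-PD-1 LysM-Cre mice had 265.5, 272, 257 and 219 CPM and the anti-PD-1 floxed mice 269, 271, 255 and 214 CPM. The isotype LysM-Cre mice had 130, 188, 175 and 237 CPM and the isotype floxed mice 157, 181, 159 and 194 CPM. All 4 anti-PD-1 floxed mice lay above all 4 isotype floxed mice, while isotype LysM-Cre mouse 4 overlapped the treated LysM-Cre mice. Over both genotypes the means were 253 ± 23.5 CPM with anti-PD-1 and 178 ± 31.6 CPM with isotype (SD, n = 8 each), a log2 change of 0.53 (SE 0.10), which did not pass edgeR over all genes (adjusted p = 0.0741, unadjusted p = 8.29e-05). DESeq2 called it (adjusted p = 0.000625), at a background of 0.82% of genes called by DESeq2 in this contrast. The change was 0.73 in pool E5 alone (edgeR adjusted p = 0.0324) and 0.33 in pool E6 alone (adjusted p = 0.780). Without isotype LysM-Cre mouse 4 it was 0.59 (adjusted p = 0.0239), and without isotype floxed mouse 4 it was 0.56 (adjusted p = 0.0453). Of the 16 fits that each left out 1 mouse, only these 2 passed edgeR. Over the 16 the change was 0.46 to 0.59, with adjusted p up to 0.164. Within floxed mice the change was 0.59 (SE 0.14, adjusted p = 0.134) and within LysM-Cre mice 0.47 (SE 0.14, adjusted p = 0.934), and the difference between these, -0.12 (SE 0.20), did not pass (interaction, adjusted p = 0.948). In the Mrc1 macrophage cluster alone the change over both genotypes was 0.56 (adjusted p = 0.0517). Over 28 alternatives the change was positive in 28, from 0.33 to 0.73, with adjusted p from 0.000138 to 0.780 and 6 calls.

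**Figure D3:**
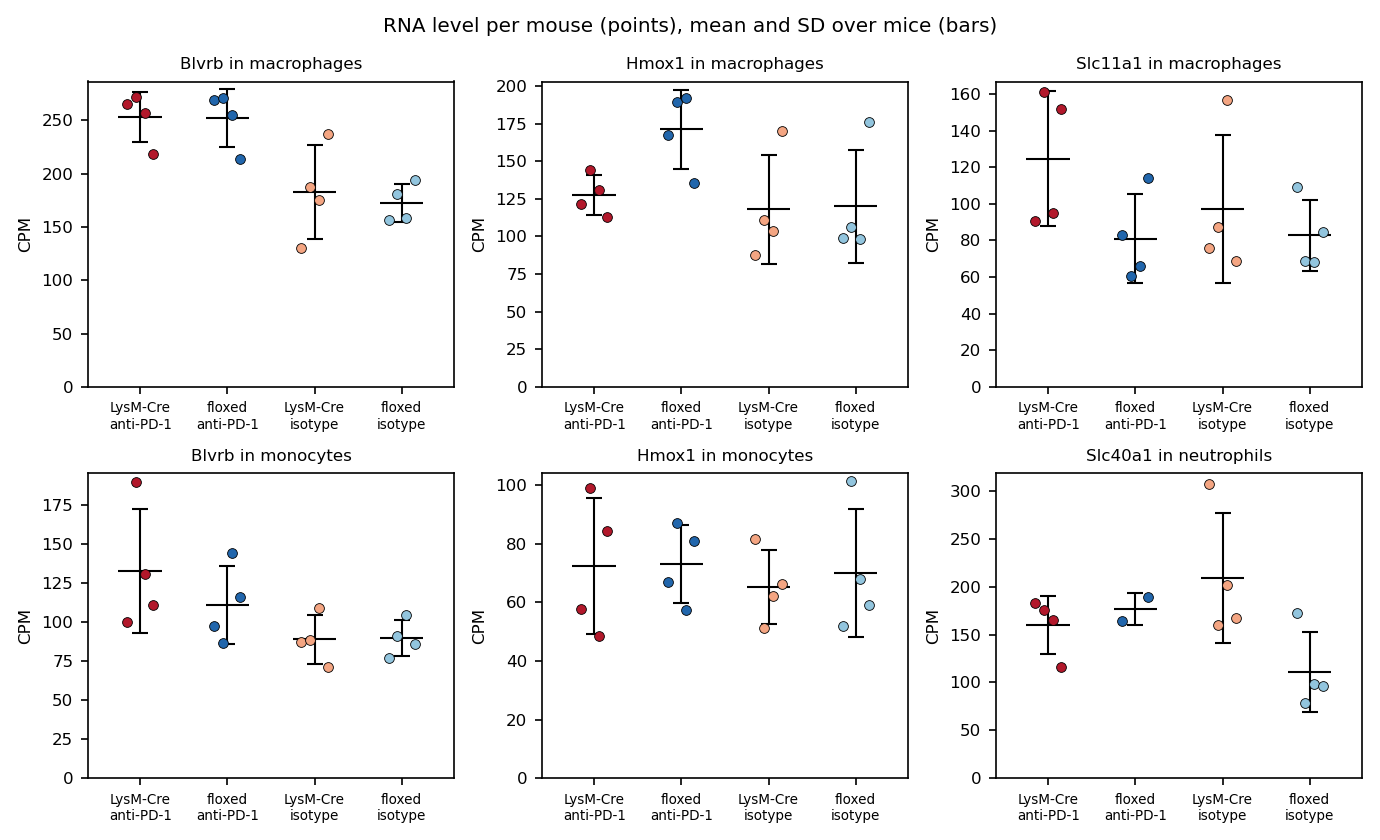
CPM per mouse (points) in the 4 conditions (horizontal axis), with the mean and SD over mice (bars), for Blvrb, Hmox1 and Slc11a1 in macrophages, Blvrb and Hmox1 in monocytes and Slc40a1 in neutrophils. In macrophages, the 4 anti-PD-1 floxed mice have Blvrb of 214 CPM or more and the isotype floxed mice of 194 CPM or less.

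Markers of other cells were also counted in the same macrophage sums, and those of lymphocytes had lower estimates with anti-PD-1. The summed level of 12 lymphocyte markers was 12.3 to 23.2 CPM in anti-PD-1 LysM-Cre, 13.7 to 38.7 CPM in anti-PD-1 floxed, 33.0 to 71.0 CPM in isotype LysM-Cre and 30.5 to 263 CPM in isotype floxed macrophages, and none of the 12 was at 0 throughout. Of the 8 markers tested, 1 (Cd3g, a T cell receptor subunit) passed edgeR within floxed mice, and their median log2 change over both genotypes was -2.26, with 0 passing. Outside this list, and named after their values were seen, the T cell receptor genes Trbc1 and Trbc2 were among the 6 genes that fell by edgeR within floxed mice, and Trbc1 and the lymphocyte gene Ltb were among those that fell over both genotypes. The 6 red cell markers, of which 1 was at 0 throughout, summed to 27.1 to 548, 19.4 to 115, 33.5 to 485 and 23.3 to 86.1 CPM in the same 4 conditions. The median log2 change of the red cell markers with treatment over both genotypes was 0.14. For neutrophil markers (10 genes) the range was 255 to 361 and 179 to 429 CPM with anti-PD-1 in LysM-Cre and floxed mice, and 236 to 2939 and 151 to 713 CPM with isotype. Isotype LysM-Cre mice 2 and 4 had the highest neutrophil sums, 2939 and 2177 CPM. The part of all these markers in the values of Blvrb and Hmox1 was not tested. The cells of a separate cluster of 65 cells with 156591 CPM of Hbb-bs, a haemoglobin chain, had 74.0 CPM of Hmox1 and 227 CPM of Blvrb. The same cells had 3517 CPM of C1qa (a UMI in 92.3% of them) and 542 CPM of Mrc1, the mannose receptor (66.2%). Macrophage markers were thus counted in them too, and their Hmox1 and Blvrb are not levels of red cells alone.

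Blvrb in monocytes had a like size of difference, with 133 ± 39.9 CPM in anti-PD-1 LysM-Cre, 111 ± 25 CPM in anti-PD-1 floxed, 89.0 ± 15.6 CPM in isotype LysM-Cre and 89.7 ± 11.6 CPM in isotype floxed mice (SD, n = 4 each). The log2 change over both genotypes was 0.47 (SE 0.14, edgeR adjusted p = 0.452), with 0.46 in pool E5 and 0.45 in pool E6, so it had the same size in both pools but missed the threshold. In the same monocyte sums, the 12 lymphocyte markers, none at 0 throughout, summed to 23.5 to 26.6 CPM in anti-PD-1 LysM-Cre, 30.9 to 43.5 CPM in anti-PD-1 floxed, 28.8 to 83.1 CPM in isotype LysM-Cre and 52.3 to 78.7 CPM in isotype floxed mice. Their median log2 change over both genotypes was -1.05, with 6 tested and 0 called. The 10 neutrophil markers averaged 1899 and 1687 CPM with anti-PD-1 in LysM-Cre and floxed monocytes, and 975 and 943 CPM with isotype (median log2 change 0.20, 9 tested, 0 called by edgeR). The higher means came from anti-PD-1 LysM-Cre mouse 4 (5376 CPM) and anti-PD-1 floxed mouse 2 (4429 CPM). The other anti-PD-1 mice had 485 to 1166 CPM, within the 376 to 2330 CPM of the isotype mice. The part of these lymphocyte and neutrophil markers in the monocyte values was not tested.

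Hmox1 in macrophages was 121, 144, 131 and 113 CPM in anti-PD-1 LysM-Cre mice and 168, 189, 192 and 136 CPM in anti-PD-1 floxed mice. It was 87.6, 111, 103 and 170 CPM in isotype LysM-Cre mice and 99.2, 106, 98.5 and 176 CPM in isotype floxed mice. In each isotype group mouse 4 reached or passed the treated range and the other 3 did not. The change within floxed mice was 0.57 (SE 0.20, edgeR adjusted p = 0.228), and over both genotypes 0.34 (SE 0.14, adjusted p = 0.403). By pool, the change over both genotypes was 0.62 in pool E5 (adjusted p = 0.0434) and 0.07 in pool E6 (adjusted p = 0.988). In monocytes Hmox1 averaged 72.7 CPM with anti-PD-1 and 67.8 CPM with isotype over both genotypes, and the groups overlapped (log2 change 0.11, SE 0.16, adjusted p = 0.9997).

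The Hmox1-high Nos2 and Inhba cluster was spread unevenly over mice. It held 14, 8, 42 and 43 cells in anti-PD-1 LysM-Cre mice, 233, 9, 24 and 8 cells in anti-PD-1 floxed mice, 2, 44, 11 and 17 cells in isotype LysM-Cre mice and 36, 6, 73 and 3 cells in isotype floxed mice. Mouse 1 of the anti-PD-1 floxed group thus gave 233 of its 573 cells. With this cluster joined to the monocytes, an alternative chosen after seeing the data, the Hmox1 change was 1.48 within floxed mice (SE 0.39, edgeR adjusted p = 0.157) and 0.97 over both genotypes (SE 0.27, adjusted p = 0.155). With all cells of a mouse summed, Hmox1 had an estimate of 1.2 (SE 0.27, adjusted p = 0.105), Blvrb of 0.78 (adjusted p = 0.105) and Ftl1 of 0.61 (adjusted p = 0.106) over both genotypes. In such sums, more cells of a class and more RNA per cell cannot be told apart.

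Of the storage genes, Ftl1 in macrophages averaged 5863 ± 624 CPM with anti-PD-1 and 5092 ± 867 CPM with isotype over both genotypes (log2 change 0.22, SE 0.10, edgeR adjusted p = 0.459), and the groups overlapped. Pool E5 alone gave 0.38 and pool E6 alone 0.07. Fth1 averaged 10999 ± 1477 and 10205 ± 2387 CPM in the same groups (0.12, SE 0.12, adjusted p = 0.784). In fibroblast-like cells, which a CD45 sort should remove, Ftl1 was 2461, 2516, 2646 and 2791 CPM in anti-PD-1 LysM-Cre mice and 2331, 2690 and 2358 CPM in 3 anti-PD-1 floxed mice. It was 1798, 2102, 2552 and 2282 CPM in isotype LysM-Cre mice and 2055, 1769, 2176 and 2039 CPM in isotype floxed mice. The floxed groups did not overlap, the LysM-Cre groups did, and the change over both genotypes was 0.29 (SE 0.06, edgeR adjusted p = 0.0827, DESeq2 adjusted p = 0.00133). Over 23 alternatives it was 0.25 to 0.34, with adjusted p from 0.00133 to 0.605 and 2 calls.

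The export gene Slc40a1 was counted from few UMIs in macrophages. It had 1.66, 2.08, 1.12 and 34.1 CPM in anti-PD-1 LysM-Cre mice and 9.69, 25.1, 5.65 and 3.55 CPM in anti-PD-1 floxed mice. It had 2.58, 0, 6.32 and 2.59 CPM in isotype LysM-Cre mice and 2.39, 1.27, 3.09 and 2.97 CPM in isotype floxed mice. The 2 highest values rested on 22 UMIs each, of which 1 cell gave 9 of 22 in anti-PD-1 LysM-Cre mouse 4 and 18 of 22 in anti-PD-1 floxed mouse 2. Without those cells the values were 20.5 and 4.70 CPM, and the second was still above the 4 isotype floxed mice. The log2 change was 2.09 within floxed mice (SE 0.98, edgeR adjusted p = 0.364) and 1.70 over both genotypes (SE 0.72, adjusted p = 0.432). Slc11a1 in monocytes averaged 107 ± 22.2 CPM with anti-PD-1 and 83.3 ± 11.6 CPM with isotype (0.32, SE 0.10, adjusted p = 0.535), at 0.50 in pool E5 and 0.14 in pool E6. Trf had estimates of -0.10 (SE 0.17) in macrophages and -0.28 (SE 0.18) in monocytes, and Tfrc of -0.24 (SE 0.28) and -0.19 (SE 0.21), all with an edgeR adjusted p of 0.827 or more.

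LysM-Cre against floxed mice compares mice with and without Cre, all with the floxed glucocorticoid receptor gene. No group had Cre without the floxed gene, so Cre itself and loss of the receptor cannot be told apart. Loss of the receptor was also not shown by these counts. Cd163, whose transcription glucocorticoids are known to raise, had the largest estimate among the members. Macrophage values were 0.83, 6.24, 2.24 and 1.55 CPM in anti-PD-1 LysM-Cre mice, against 4.84, 61.6, 63.7 and 3.94 CPM in anti-PD-1 floxed mice. With the isotype antibody they were 2.58, 0.32, 0.45 and 10.0 CPM in LysM-Cre mice, against 2.74, 4.23, 41.9 and 22.3 CPM in floxed mice. The groups overlapped under both antibodies, and 4 floxed mice stood above every LysM-Cre mouse. Over both treatments the means were 3.03 ± 3.4 CPM in LysM-Cre and 25.6 ± 26.5 CPM in floxed mice (SD, n = 8 each), a log2 change of -2.44 (SE 0.73). It did not pass edgeR (adjusted p = 0.451, unadjusted p = 0.00392), and pool E5 alone gave -2.34 and pool E6 alone -3.09. Over 27 alternatives the change was negative in 27, from -3.54 to -1.72. It was called in 1 of them, edgeR with no filter on low counts, where 1.7% of all genes were called in the same contrast.

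Most of the CD163 signal, in RNA and in protein, came from a few cells. Of 2500 macrophages, 36 (1.44%) had more than 100 CD163 antibody counts, a limit set after seeing the counts, and 19 macrophages lay between 50 and 200. Those 36 cells held 84.4% of the 64184 CD163 antibody counts of macrophages and 296 of the 414 Cd163 UMIs (71.5%). A Cd163 UMI was seen in 16 of 18 macrophages above 500 counts (88.9%, mean 14.8 UMIs) and in 32 of 1439 with at most 2 counts (2.22%). CD163 averaged 25.7 counts per macrophage, against at most 0.804 for the isotype control antibodies. The 36 cells had a median of 3219 antibody counts in total, against 1716 in other macrophages, and without the CD163 counts 1740, against 1713.5. In all, 67 cells of any class had more than 100 CD163 counts. They included 13 of 968 fibroblast-like cells, of which 1 had a Cd163 UMI, and 8 monocytes, of which 3 had one, so antibody counts above the limit also occurred without Cd163 RNA. The mean per cell was 6.70 in fibroblast-like cells, 4.16 in cDC2, 2.95 in monocytes and 1.53 in NK cells.

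**Figure D4:**
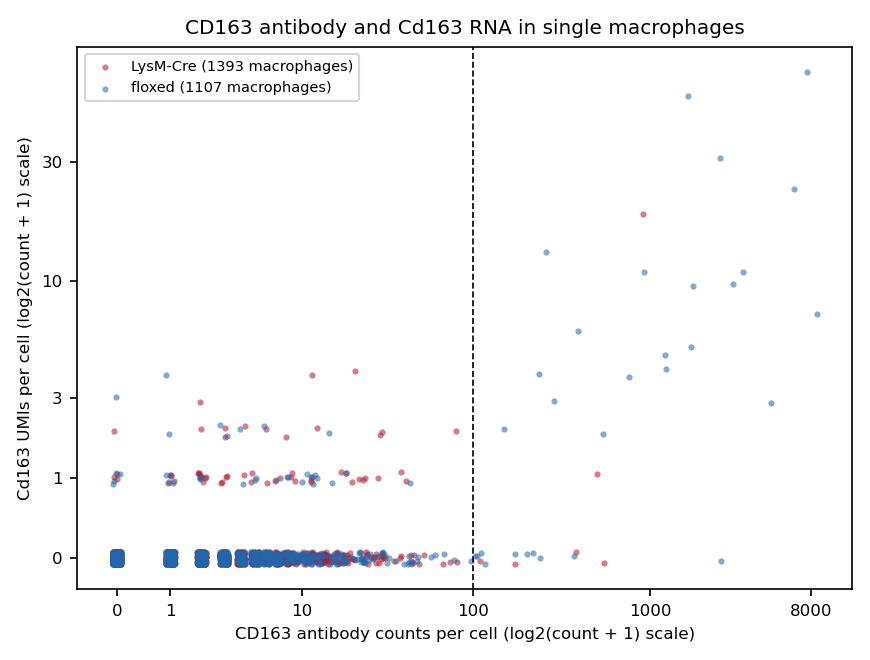
CD163 antibody counts (horizontal axis) and Cd163 UMIs (vertical axis) of each of 2500 macrophages, both on log2(count + 1) scales with a small random shift for display. Red points are from LysM-Cre and blue points from floxed mice, and the dashed line marks 100 antibody counts. Of the 36 cells beyond it, 6 are from LysM-Cre and 30 from floxed mice.

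The CD163-high macrophages were mostly from floxed mice. LysM-Cre mice gave 6 of 1393 macrophages (0.431%), from 5 of 8 mice, and floxed mice 30 of 1107 (2.71%), from 8 of 8 mice. By mouse, the percentage had a median of 0.331 (0 to 3.13) in LysM-Cre and 2.55 (0.391 to 12.1) in floxed mice, so the ranges overlapped. Mouse 3 of both floxed conditions gave 17 of the 30. Since the limit was set on these cells, no test was run on the shares. Per mouse, the antibody averaged 7.76, 4.98, 2.52 and 3.21 counts per macrophage in anti-PD-1 LysM-Cre, 4.43, 103, 387 and 5.18 in anti-PD-1 floxed, 15.7, 1.48, 3.97 and 9.15 in isotype LysM-Cre and 3.70, 7.41, 64.6 and 65.7 in isotype floxed mice, with medians of 1 to 5.

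Among 87 antibodies tested in macrophages, CD163 passed edgeR's test in 0 of 7 contrasts, with an unadjusted p under 0.05 in 2. Of all 609 antibody tests, 3.28% passed edgeR and 11.8% had an unadjusted p under 0.05. Its log2 change was -4.34 for LysM-Cre over floxed within anti-PD-1 (SE 1.33, adjusted p = 0.458) and -2.99 over both treatments (SE 0.96, adjusted p = 0.619). Without the 36 cells these were -0.43 and -0.46, and Cd163 RNA then no longer passed the filter on low counts. The change with anti-PD-1 over both genotypes was 0.81 (SE 0.81) with all macrophages and -0.76 without the 36. Since those cells were removed by the counts of the antibody that is measured, the values without them are descriptions, with no test. The means per remaining cell were 1.14, 1.16, 2.52 and 3.21 in anti-PD-1 LysM-Cre, 1.23, 2.24, 3.31 and 3.53 in anti-PD-1 floxed, 2.18, 1.48, 3.11 and 8.89 in isotype LysM-Cre and 1.61, 5.47, 6.93 and 7.33 in isotype floxed mice. In monocytes CD163 passed in 0 of 7 contrasts, with an unadjusted p under 0.05 in 4, while 0.657% of antibody tests passed edgeR and 9.52% had an unadjusted p under 0.05. No other tool was run on the antibodies. The genotype estimate there within anti-PD-1, -3.48 (adjusted p = 0.259), rested on anti-PD-1 floxed mouse 2, where 1 of 21 monocytes had 1133 antibody counts and all 16 Cd163 UMIs.

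**Figure D5:**
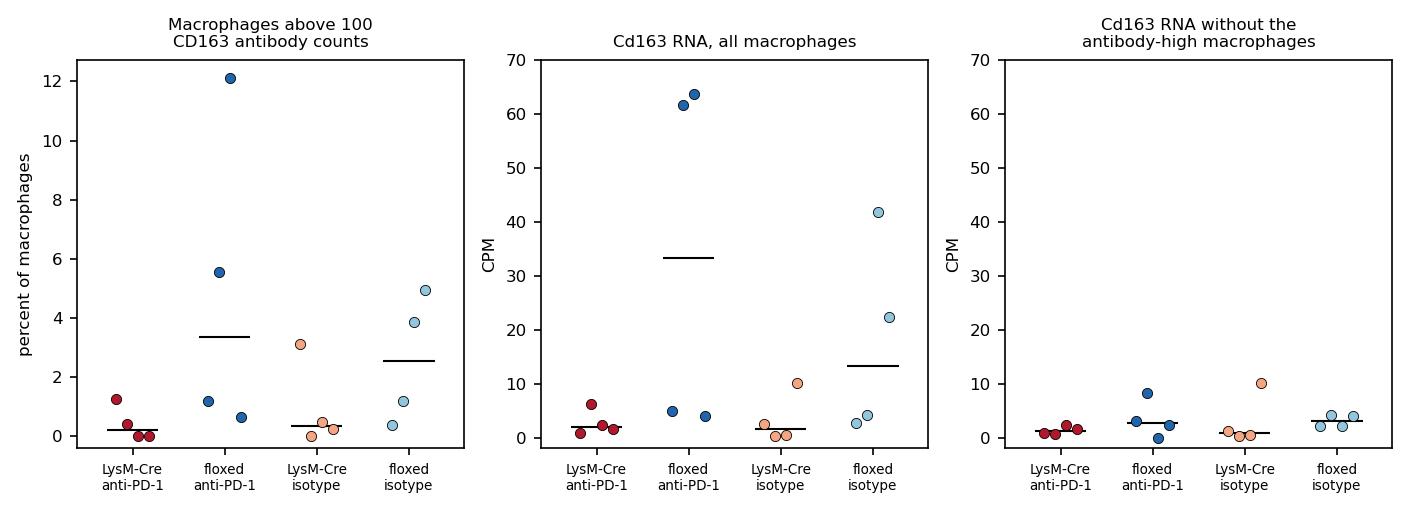
Values per mouse (points, with the median as a bar) in the 4 conditions: percent of macrophages above 100 CD163 antibody counts (left), Cd163 CPM in all macrophages (middle) and Cd163 CPM without those cells (right). Floxed mice reach 12.1% and 63.7 CPM, and without the CD163-high cells no mouse is above 10.1 CPM.

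Without the CD163-high cells, isotype LysM-Cre mouse 4 had the highest Cd163, 10.1 CPM, from 62 UMIs in all of its macrophages, no more than 4 in 1 cell. The CD163-high macrophages also differed in other genes, given here as sums over cells with no test. Of the 36 cells, 30 came from floxed mice and 17 from mouse 3 of both floxed conditions. The other macrophages came from all mice, so these differences cannot be told apart from differences by genotype or mouse. They had 399.6 CPM of Hmox1, against 215 CPM in the rest of the Mrc1 cluster, to which 27 of the 36 belonged, and 131 CPM in all other macrophages. Trf was at 539 CPM, against 401 and 295 CPM, and Blvrb at 298 CPM, against 251 and 213 CPM. Slc11a1 went the other way, at 61.9 CPM, against 85.5 and 96.6 CPM, as did Fth1, at 9797 CPM, against 11398 and 10390 CPM. Slc40a1 was at 16.0 CPM from only 8 UMIs. Lyve1, Folr2 and Cd209f, genes of resident tissue macrophages that are not members, were at 65.9, 430 and 396 CPM, against 1.88, 167 and 0.278 CPM in the rest of the Mrc1 cluster. Lyve1 and Cd209f each had a UMI in 22.2% of the 36 cells and Folr2 in 75.0%. Stab1, a scavenger receptor, was at 775 CPM, against 653 CPM, with a UMI in 77.8% of cells, against 92.2%. Scrublet marked 3 of the 36 as doublets, and their median depth was 13712 gene UMIs, against 13048.5 for the other macrophages.

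Other members differed less by genotype. Slc11a1 in macrophages was 90.7, 161, 95.1 and 152 CPM in anti-PD-1 LysM-Cre mice, against 82.9, 60.4, 66.2 and 114 CPM in anti-PD-1 floxed mice. It was 76.0, 87.3, 157 and 68.9 CPM in isotype LysM-Cre mice, against 109, 68.5, 68.3 and 84.7 CPM in isotype floxed mice. It averaged 111 ± 38.7 CPM in LysM-Cre and 81.8 ± 20.3 CPM in floxed mice over both treatments (log2 change 0.46, SE 0.21, edgeR adjusted p = 0.512), and Fth1 averaged 11438 ± 2352 and 9767 ± 1055 CPM in the same groups (0.28, SE 0.12, adjusted p = 0.505). Both overlapped. Tfrc had an estimate of -0.56 (SE 0.29, adjusted p = 0.549) in macrophages, at 8.53 ± 4.09 CPM in LysM-Cre and 13.9 ± 6.1 CPM in floxed mice. Red cell markers had a median change of 1.97 in the same contrast, 4 of 6 tested and none called, and their part in these values was not tested. Ftl1 in CD8 T cells was 517 ± 69.2 CPM with anti-PD-1 and 642 ± 92.3 CPM with isotype in LysM-Cre mice (-0.31, SE 0.13, adjusted p = 0.642), and this turned to 0.23 under another hashtag rule. In NK cells, Tfrc was 44.8 ± 11.4 CPM in isotype LysM-Cre and 31.5 ± 6.01 CPM in isotype floxed mice (0.56, SE 0.21, adjusted p = 0.9997). Trf in fibroblast-like cells was 29.6 ± 14.4 CPM in LysM-Cre and 19.7 ± 16.8 CPM in floxed mice (1.0, SE 0.40, adjusted p = 0.852).

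Neutrophils and some lymphocyte classes had too few mice for all contrasts, and were tested only between conditions with at least 3 mice. In neutrophils, 0 of 12 member tests passed edgeR, and 2 had an unadjusted p under 0.05, against 0% and 3.88% of 3922 gene tests. Slc40a1 had 307, 159.5, 202 and 167 CPM in isotype LysM-Cre and 173, 78.2, 98.4 and 96.6 CPM in isotype floxed neutrophils. These values rested on 39, 174, 30 and 20 UMIs in isotype LysM-Cre mice and 39, 5, 199 and 10 UMIs in isotype floxed mice. Only isotype floxed mouse 1 reached the LysM-Cre range, and the log2 change was 0.79 (SE 0.26, adjusted p = 0.9997, unadjusted p = 0.00797). In LysM-Cre mice Slc40a1 was 183, 176, 165 and 117 CPM with anti-PD-1, and the 2 anti-PD-1 floxed mice with enough neutrophils had 164.5 and 189 CPM. Slc11a1 in LysM-Cre neutrophils was 209.5, 282, 165 and 173 CPM with anti-PD-1 and 118, 137.5, 148 and 83.4 CPM with isotype, without overlap (0.74, SE 0.24, adjusted p = 0.642). Type 2 dendritic cells had 0 of 10 member tests passed by edgeR and 0 unadjusted (0% and 4.14% of 11936 gene tests), and regulatory T cells 0 of 5 and 0 unadjusted (0.0173% and 4.32% of gene tests). In CD4 T cells 0 of 2 passed and 1 had an unadjusted p under 0.05 (0.0278% and 4.56% of gene tests). It was Fth1, at 2086, 1815 and 2263 CPM in isotype LysM-Cre and 3042, 2346, 3216 and 3510 CPM in isotype floxed mice, without overlap (log2 change -0.51, SE 0.13, adjusted p = 0.295). DESeq2 was not run for these 4 classes.

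The wider pathway was followed with 59 further genes of haem synthesis, haem and iron transport, iron sensing and the Nfe2l2 response. In macrophages 43 of the 59 were tested and in monocytes 39, and in each of the 7 contrasts 0 rose and 0 fell by edgeR. DESeq2 called 0 in macrophages and 1, Slc7a11, in monocytes, for treatment over both genotypes. Over the 7 contrasts together, 0.149% of all monocyte gene tests passed DESeq2. Of the tests of the list, 0 to 10 per contrast in macrophages and 1 to 6 in monocytes had an unadjusted p under 0.05. In macrophages these were 9 of 43 for treatment over both genotypes (20.9%, against 10.5% of all genes) and 10 of 43 for genotype over both treatments (23.3%, against 9.38%). The median log2 change of the list was 0.09 for treatment in macrophages, against -0.01 over all genes. The smallest p belonged to Slc48a1, which moves haem out of the lysosome, at 52.5 ± 7.92 CPM with anti-PD-1 and 39.4 ± 2.40 CPM with isotype (log2 change 0.43, SE 0.10, edgeR adjusted p = 0.133). Srxn1, sulfiredoxin, was at 13.9 and 8.47 CPM (0.75, adjusted p = 0.148), and Cp, the ferroxidase ceruloplasmin, at 9.85 and 23.9 CPM (-1.56, adjusted p = 0.252). By genotype within anti-PD-1, Slc39a14, an importer of iron and zinc, was at 20.2 ± 0.648 CPM in LysM-Cre and 41.7 ± 14.1 CPM in floxed macrophages (-0.97, adjusted p = 0.251). In monocytes, the cystine importer gene Slc7a11 was at 77.7 ± 26.9 CPM with anti-PD-1 and 38.1 ± 22.1 CPM with isotype (1.13, SE 0.25, adjusted p = 0.254). Slc7a11 was highest in neutrophils. The mean sum of neutrophil markers was also higher in anti-PD-1 monocytes, through anti-PD-1 LysM-Cre mouse 4 and anti-PD-1 floxed mouse 2. The part of these markers in the Slc7a11 value was not tested. Nfe2l2 was at 299 and 233 CPM (0.37, adjusted p = 0.323).

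By class, several of these genes marked the neutrophils, as Slc40a1 did. Haptoglobin (Hp) averaged 1149.7 ± 264 CPM in neutrophils, 363 ± 155 CPM in monocytes and 7.40 ± 6.24 CPM in macrophages. Lcn2, which binds iron-loaded siderophores, had 1661 ± 1069 CPM, Slc7a11 853 ± 315 CPM and Steap4, a metalloreductase, 216 ± 80.3 CPM in neutrophils, and the next class of Steap4 had 2.23 CPM. Lrp1, the receptor of haem-bound haemopexin, averaged 423 ± 58.9 CPM in fibroblast-like cells, 288 ± 93.1 CPM in macrophages and 278 ± 55.5 CPM in monocytes. Over the 13 classes, whose means share libraries and depth, the genes most like Fth1 by Pearson's r were Lamp2 (0.99), Crk (0.94) and Bach1 (0.93), and those most like Ftl1 were Sgpl1 (0.95), Nfe2l2 (0.94) and Cstb (0.94), among 11629 genes. For Slc40a1 they were Chil1, Meig1 and Camp (0.90 each), for Slc11a1 Gm5150 (0.95), for Hmox1 Tmem43 (0.92) and Alas1 (0.91), for Trf Sirpa (0.91) and Lyn (0.91), for Cd163 Igsf9 (0.90), for Blvrb Evi5 (0.89) and for Tfrc Dusp9 (0.88).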

How the data were processed

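The authors deposited, per the labels, 10x single-cell 3' counts of gene UMIs, hashtags and antibody tags for 2 pools. Cell Ranger 3.0.1 and the mm10 build are named in the submitters' processing notes, while Cell Ranger 6.1.2 is named in the file headers. These deposited counts were used unchanged. Barcodes with at least 500 gene UMIs, 200 genes and at most 10% mitochondrial UMIs were demultiplexed with Seurat 5.3.0 (HTODemux), which left 8408 and 8831 cells with 1 hashtag and removed 3836 and 4471 hashtag doublets. Scrublet marked a further 487 and 527 cells, whose removal was an alternative. The hashtag reference prints 1 sequence for both hashtags of floxed isotype mice, while the deposited counts list them apart; this touches which of those mice a cell is given to, not its condition, and was not tested. Cells were clustered with scanpy 1.11.5 (2000 variable genes without the members, 30 components, resolution 1.0) and clusters named from at least 3 markers. Sums per mouse and class (at least 20 cells) were tested with edgeR 4.0.16, after its filter on low counts, with the pool as covariate and Benjamini-Hochberg adjustment per contrast. DESeq2 1.42.0 was an alternative. Antibody counts were tested alike.

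On simulated macrophage counts (treatment over both genotypes), edgeR recovered 189 of 200 genes changed by 1 on the log2 scale, with 9 false calls. The changed genes were drawn only from those above a minimum mean level. The simulated counts held no pool effect and no counts concentrated in a few cells. The recovery therefore does not give the power for members with few or unevenly spread UMIs, such as Slc40a1 and Cd163. Changes smaller than 1 were not simulated. The power for estimates such as 0.53 for Blvrb and 0.34 for Hmox1 in macrophages is therefore not given either. Replicates are mice, as the labels state. Intervals and SEs of sums cover the spread between mice. All members were named, and of the pathway list the genes past the threshold or the 3 with the smallest p in a contrast. Members, lists and markers were chosen with earlier results of these data known. Alternatives were a DESeq2 fit, no filter, no pool covariate, each pool alone, each mouse left out, another hashtag rule, stricter cell filters and those added after seeing the data.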

Additional observations from a re-analysis of the deposited data

Results flagged for a closer look

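In 12 of 107 groups of 4 mice, 1 mouse lay far from the other 3 by Dixon's criterion, which chance gives in about 1 in 20 groups. In 4 of the 12 the other 3 mice were at 0, where any value above 0 meets the criterion. In macrophages, Slc40a1 was 34.1 CPM in anti-PD-1 LysM-Cre mouse 4, against at most 2.08 CPM in the other 3, Hmox1 was 176 CPM in isotype floxed mouse 4, against at most 106 CPM, and Trf was 173 CPM in isotype LysM-Cre mouse 2, against at least 387 CPM. In monocytes of anti-PD-1 floxed mouse 2, of which there were 21, Cd163 was 69.5 CPM, the CD163 antibody averaged 57.7 counts per cell and Tfrc was 13 CPM, and all Cd163 UMIs were in 1 cell. Fth1 in monocytes was 15017 CPM in anti-PD-1 LysM-Cre mouse 2, against at most 10635 CPM in the other 3. Slc40a1 in monocytes was 2.53 CPM (7 UMIs) in anti-PD-1 LysM-Cre mouse 4 and 0.509 CPM (1 UMI) in anti-PD-1 floxed mouse 3, with 0 in the others of their groups. In neutrophils, Trf was 229.5 CPM in anti-PD-1 LysM-Cre mouse 3, against at most 141 CPM. Blvrb was 9.66 CPM in isotype floxed mouse 4, against at least 31.0 CPM, and Cd163 was 1.98 CPM (4 UMIs) in isotype floxed mouse 3, against 0.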

How the results depend on the processing

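No member passed edgeR in any contrast of macrophages, monocytes, fibroblast-like cells, CD8 T or NK cells, and this count of 0 changed in few settings. Without the filter on low counts, the number of member calls was 5 and 1 for genotype within anti-PD-1 and within isotype, 4 and 3 for treatment within floxed and within LysM-Cre mice, 5 for genotype and 6 for treatment over both. Of all genes of these 5 classes, 0.452% to 1.7% were then called per contrast, against 0% to 0.0508% with the filter. With DESeq2 it was 1 for treatment within floxed mice (Blvrb in macrophages) and 2 for treatment over both genotypes (Blvrb in macrophages, Ftl1 in fibroblast-like cells). Over all contrasts, DESeq2 called 0.500% of macrophage and 0.239% of fibroblast-like gene tests. For treatment over both genotypes, edgeR gave 1 member call with a mitochondrial share of at most 5% and 2 in pool E5 alone. When each mouse was left out it gave 0 to 1. The share of all genes called in these edgeR settings is not given here, so these counts are not read as a result about the members. The log2 changes followed were those of members with an unadjusted p under 0.05 in the main edgeR fit, and chosen contrasts of the CD163 antibody. Over their alternatives, 778 values kept direction and side of the threshold, 23 passed it and 5 reversed. Most alternatives left out 1 mouse and shared all other mice with the main fit. Keeping the direction was therefore likely beforehand, and the 778 are not read as support. Ftl1 in CD8 T cells within LysM-Cre mice was 0.23 with another hashtag rule, against -0.31. The CD163 antibody in macrophages without the CD163-high cells was -0.79 for treatment within floxed mice, against 2.16, -0.76 for treatment over both genotypes, against 0.81, and 0.0615 for the interaction, against -2.70. Without anti-PD-1 floxed mouse 3 the treatment value was -0.30. The antibody's count of calls without those cells was 1, against 0, which is not read, since the same antibody chose the cells. The class with the highest level was kept for 8 of 9 members with means over cells (Ftl1 then highest in neutrophils) and for 7 of 9 with the other hashtag rule (Ftl1 in neutrophils, Tfrc in CD8 T cells), counting classes with at least 3 mice. The causes were not tested. No paired analysis was possible because mice are numbered only by pool and hashtag, and the pool was already a covariate.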
